A study of Mus musculus with 96 samples.

Results

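Lgr5 encodes a receptor for R-spondins, secreted proteins that strengthen WNT signalling by keeping frizzled receptors at the cell surface. It is best known as a marker of cycling stem cells at the base of intestinal crypts, and in the neonatal mouse uterus it is expressed in the epithelium while glands begin to bud. Lgr5-positive cells were followed here among single cells of the mouse uterus at postnatal day 7. The organ was digested with collagenase, CD326-positive cells (CD326 is EpCAM, an epithelial adhesion molecule) were sorted 1 to a well, and microfluidic quantitative PCR measured 96 assays in 96 such cells. All cells carry the same label. The labels name no strain, genotype, treatment or animal.

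The cells were chosen by their threshold cycles (Ct, which is lower where a cell held more template). Cells with a Gapdh Ct below 18 and an Epcam Ct below 28 were kept, which left 70 of 96. Of these, 19 had an Lgr5 Ct below 28 and are called Lgr5-positive, and 51 are called Lgr5-negative. No Lgr5 value lay near the limit: the latest Lgr5 Ct among positive cells was 24.7, and all 51 negative cells had no Lgr5 Ct at all (entered as 40). The Gapdh filter had a narrower gap between recorded values, from 16.5 in the last kept cell to 18.3 in the first cell left out. The last kept Epcam Ct was 24.9, and the cells dropped for Epcam had none.

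Lgr5, Gapdh and Epcam defined the cells, so their values describe the choice and are no finding. The Lgr5 Ct of the 19 cells ran from 15.0 through a median of 19.3 to 24.7. Minus the Gapdh Ct of the same cell it was 7.49 ± 2.51 cycles (mean ± SD over 19 cells). Lgr5-positive cells made up 27.1% of the Epcam-positive cells (19 of 70, exact 95% binomial interval 17.2 to 39.1%). Of 18 further cells with a Gapdh Ct below 18 but no Epcam, none had Lgr5 (a count of 0 allows up to 16.7%, taking 3 counts as the limit). The remaining Lgr5-positive cell of the plate, cell 87, was left out for its late Gapdh (Ct 18.4).

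Cells of both classes come from the same plate, and with no animal named they count as 1 sample. No test between the classes was therefore possible, and no p-value is given. Shares carry exact (Clopper-Pearson) 95% intervals, and levels carry the SD over cells. Both describe these cells only, and the intervals cover counting error alone.

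The number of detected assays (Ct below 28), which stands for depth here, was slightly higher in the Lgr5-positive cells. Of the 93 assays other than Lgr5, Gapdh and Epcam, they detected 41 to 69 with a median of 56. Lgr5-negative cells detected 25 to 76 with a median of 53. The Gapdh Ct was 12.35 ± 1.70 in Lgr5-positive and 13.08 ± 1.65 in Lgr5-negative cells, so the positive cells held somewhat more Gapdh template. Their Epcam came earlier too, at 6.41 ± 1.73 cycles after Gapdh against 8.18 ± 1.97. Because a cell with more detected assays detects any assay more often, differences in share are given within 3 strata of the number of other detected assays and then combined (Mantel-Haenszel weights). Cut on all 93 assays, the strata held 4, 7 and 8 Lgr5-positive and 20, 16 and 15 Lgr5-negative cells, fewest detected assays first. For each difference the assay itself was left out of the cut, so the stratum of a cell can vary between assays.

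Lgr5-positive cells carried Fzd10, Dpp4, Aldh1a1, Prom1 and Sox9 more often than the other Epcam-positive cells. Of the 93 assays, 12 (12.9%) had a depth-stratified share at least 20 points higher in Lgr5-positive cells, and 9 (9.68%) had one at least 20 points lower. The median over all assays was 0 points. For 5 of the 93 (5.38%) the exact intervals of the 2 classes did not overlap, and these were the 5 genes just named. In the plot of shares they stand at the top.

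**Figure D1:**
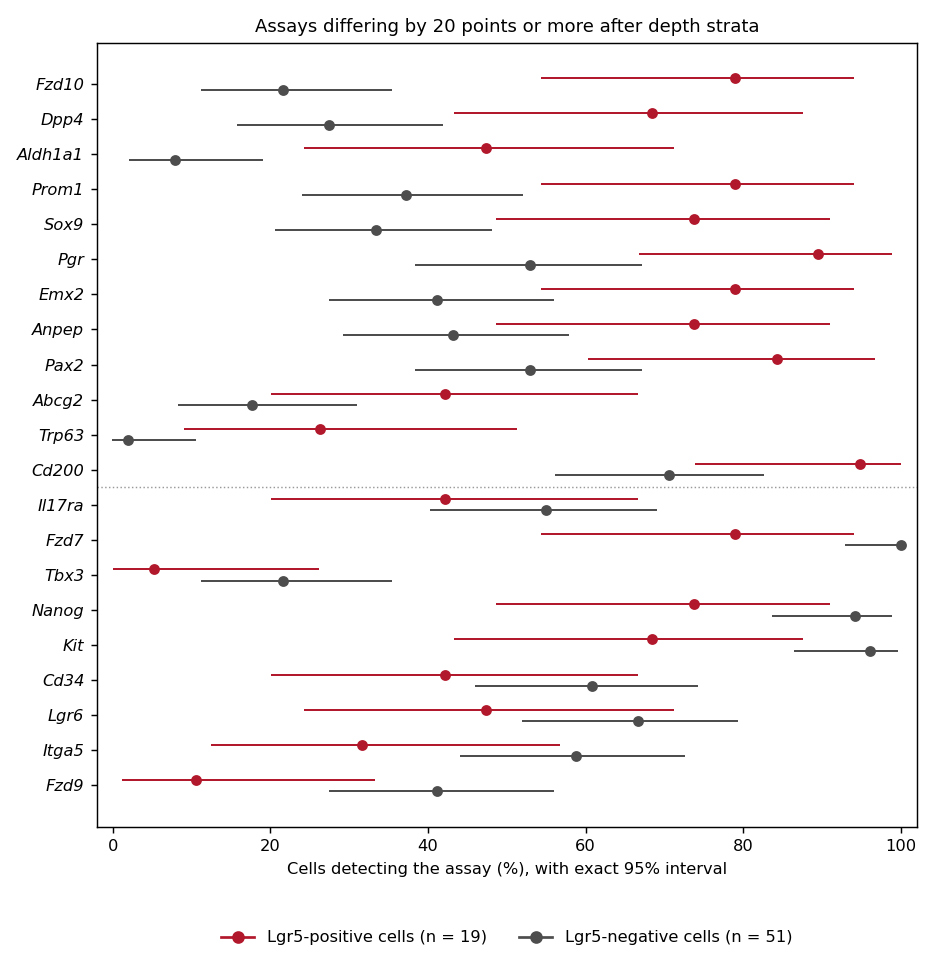
Share of cells (%) detecting each of the 21 assays whose depth-stratified share differed by 20 points or more, in the 19 Lgr5-positive (red) and 51 Lgr5-negative (grey) cells; points are shares and bars exact 95% intervals. Above the dotted line the red points lie to the right, and only for the first 5 assays do the bars not overlap.

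Fzd10, which encodes a frizzled receptor for WNT ligands, showed the largest difference. It was detected in 15 of 19 Lgr5-positive cells (78.9%, interval 54.4 to 93.9%) and in 11 of 51 Lgr5-negative cells (21.6%, interval 11.3 to 35.3%). The depth-stratified difference was 54.6 points. With strata cut on all 93 assays, Fzd10 was found in 1 of 4, 6 of 7 and 8 of 8 Lgr5-positive cells. These counts run from the lowest to the highest stratum, and Fzd10 itself counts toward the cut, unlike in the 54.6 points. The matching counts were 3 of 20, 3 of 16 and 5 of 15 in Lgr5-negative cells. Lgr5-positive cells thus had the higher share in each stratum. Among detecting cells the Fzd10 Ct minus Gapdh Ct ran from 4.40 through a median of 7.50 to 10.09 in Lgr5-positive cells. It ran from 5.21 through 8.71 to 10.31 in Lgr5-negative cells, so the ranges overlapped almost fully and the difference of the means was -0.97 cycles.

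Aldh1a1, which encodes a retinaldehyde dehydrogenase of retinoic acid synthesis, was rare outside the Lgr5-positive cells. It was detected in 9 of 19 of them (47.4%, interval 24.4 to 71.1%) and in 4 of 51 others (7.84%, interval 2.18 to 18.9%). The difference was 40.2 points after depth strata, and 69.2% of all Aldh1a1 cells were Lgr5-positive (9 of 13, interval 38.6 to 90.9%). Its level varied widely. The earliest Aldh1a1 Ct was 13.4 in cell 71 and 13.9 in cell 95, and the latest was 24.5 in cell 72. All 3 cells had an Lgr5 Ct below 18. In Lgr5-positive cell 68 and Lgr5-negative cell 55 a Ct of 28.9 was recorded, which counts as not detected. With 4 detecting Lgr5-negative cells, no difference of level was computed.

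The other 3 of the 5 genes were the surface genes Dpp4 and Prom1 and the transcription factor gene Sox9. Prom1 (CD133), a membrane protein used as a stem cell marker in several epithelia, was found in 15 of 19 Lgr5-positive cells (78.9%) and 19 of 51 others (37.3%), a depth-stratified difference of 37.9 points. Dpp4 (CD26), a serine peptidase of the cell surface, was found in 13 of 19 (68.4%) and 14 of 51 (27.5%), a difference of 41.6 points. Sox9, a regulator of progenitor cells in many epithelia, was found in 14 of 19 (73.7%) and 17 of 51 (33.3%), a difference of 36.0 points. In the 16 and 39 cells with Gapdh, actin and Hprt all detected the Sox9 difference was 18.7 points, under the size of 20. All 5 genes were detected together in 5 Lgr5-positive cells and 1 Lgr5-negative cell. At least 3 of the 5 were found in 15 of 19 Lgr5-positive and 6 of 51 Lgr5-negative cells, and none of them in 0 and 12 cells. These 5 were picked for their difference, so the joint counts describe the cells and add no support.

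Foxa2, a transcription factor gene of mature uterine glands and the remaining measured gland gene beside Sox9 and Aldh1a1, was not found with Lgr5. It was detected in 0 of 19 Lgr5-positive cells, which allows a share of up to 15.8%, and in 4 of 51 Lgr5-negative cells (7.84%). At this number of cells a difference was not detectable.

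Among the WNT and R-spondin genes the receptors went in different directions. Of 10 measured besides Lgr5, Fzd10 was at least 20 points higher, and Fzd9, Lgr6 and Fzd7 were at least 20 points lower. Over all assays these shares were 12.9% and 9.68%, so the 1 higher gene is near the background. The list's median difference was 0.30 points, close to that of all assays. Fzd9 was detected in 2 of 19 Lgr5-positive cells (10.5%, interval 1.30 to 33.1%) and 21 of 51 others (41.2%, interval 27.6 to 55.8%), a depth-stratified difference of -36.7 points. Its 2 Lgr5-positive cells, 35 and 94, are among those with the most detected assays. Lgr6, a relative of Lgr5 that also binds R-spondins, was found in 9 of 19 (47.4%) and 34 of 51 (66.7%), a difference of -30.3 points with strata and -19.3 without. Fzd7 was found in all 51 Lgr5-negative cells but in 15 of 19 Lgr5-positive cells (78.9%), a depth-stratified difference of -21.4 points that ranged from -37.7 with a detection limit of Ct 24 to -18.0 without the Gapdh filter. The 4 cells without it, 24, 47, 72 and 96, all had an Lgr5 Ct below 20, as did most Lgr5-positive cells (median 19.3).

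Lgr4, the third R-spondin receptor of the family, was detected in all 19 Lgr5-positive cells and in 45 of 51 others (88.2%), and its level was higher beside Lgr5. The Lgr4 Ct minus Gapdh Ct ran from 3.65 through a median of 6.21 to 8.40 in Lgr5-positive cells. In Lgr5-negative cells it ran from 4.45 through 7.33 to 11.61. The means, 6.12 ± 1.16 (n = 19) and 7.43 ± 1.31 (n = 45), differed by -1.31 cycles, which is 2.48-fold more template if each cycle doubles the product. That difference is about as large as the SD within either class, and the ranges overlap. Ctnnb1, which encodes beta-catenin, the intracellular carrier of the WNT signal, was found in 19 of 19 and 50 of 51 cells, at 3.14 ± 1.70 and 4.26 ± 1.40 cycles after Gapdh. Wnt7a, a ligand of the uterine epithelium, was detected in 16 of 19 and 34 of 51 cells (13.2 points), and Wnt5a, a ligand known mainly from the stroma, in 7 of 19 and 27 of 51 (-19.9 points). In the cells that had it, the Wnt5a Ct minus Gapdh Ct was 5.97 ± 1.36 beside Lgr5 (n = 7) and 8.43 ± 1.90 without it (n = 27), a difference of -2.46 cycles. Fzd4 was found in 13 of 19 and 30 of 51 cells, and Myc, a WNT target in several tissues, in 18 of 19 and 49 of 51.

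**Figure D2:**
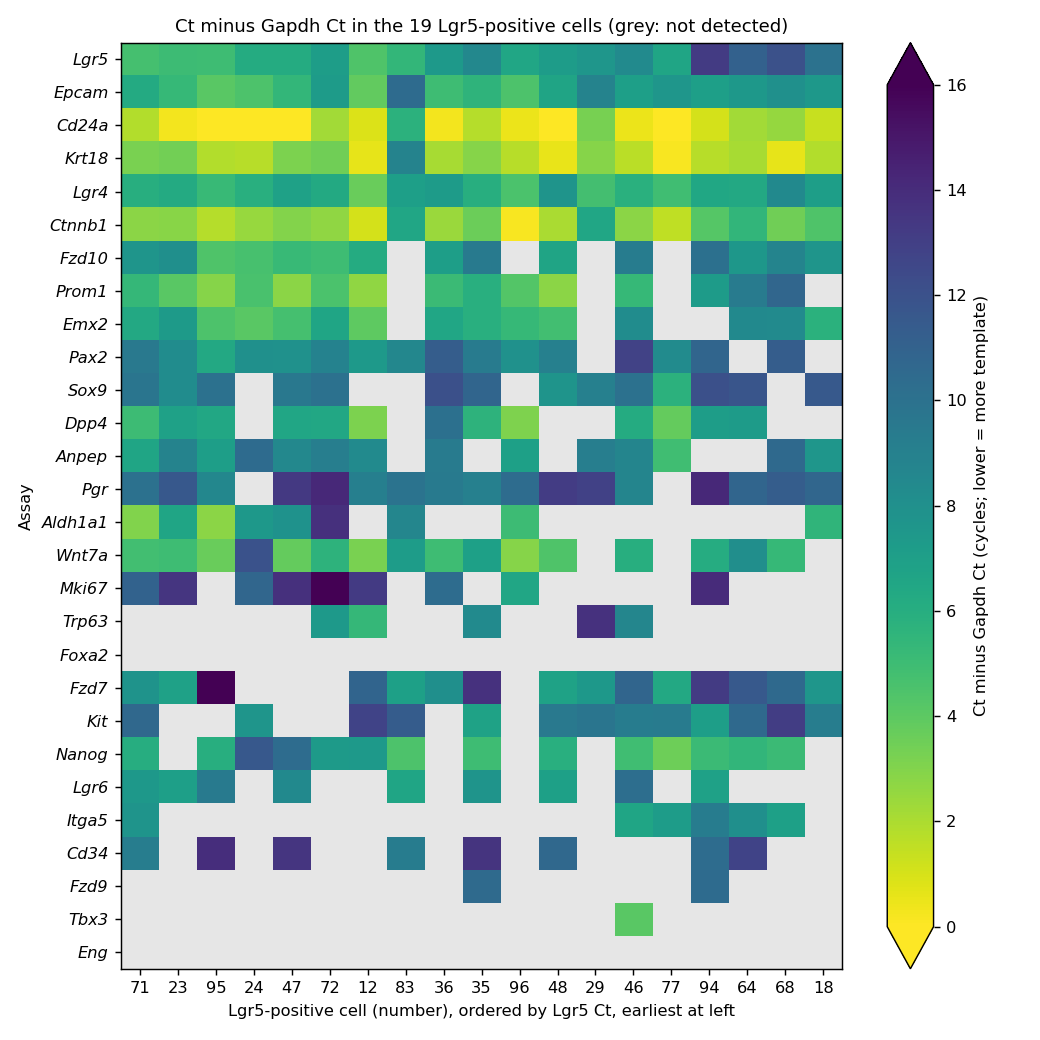
Ct minus Gapdh Ct (cycles, colour; lower and more yellow means more template, and values outside 0 to 16 take the end colours) of 28 assays in the 19 Lgr5-positive cells, ordered from the earliest Lgr5 Ct at left; grey marks no detection. Fzd10, Prom1 and Emx2 fill most columns (15 of 19 cells each) and are all 3 missing in cells 83, 29 and 77, while Foxa2 and Eng are grey throughout.

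Genes that pattern the Müllerian duct, from which the uterus arises, were split. Emx2, a homeobox gene, was detected in 15 of 19 Lgr5-positive cells (78.9%) and 21 of 51 others (41.2%), a depth-stratified difference of 31.4 points. Pax2, a paired-box gene, was detected in 16 of 19 (84.2%) and 27 of 51 (52.9%), a difference of 27.2 points. The Pax2 difference was 18.4 points with an Epcam Ct limit of 24 and 46.2 points with a detection limit of Ct 24. Pax2 also differed in level among the cells that had it. Its Ct minus Gapdh Ct ran from 6.34 through a median of 8.74 to 12.86 beside Lgr5 and from 8.83 through 11.84 to 15.33 without, and the means of 9.10 ± 1.70 (n = 16) and 11.62 ± 1.54 (n = 27) differed by -2.53 cycles (5.76-fold). Hox genes did not share the pattern: Hoxa10 was found in 2 of 19 and 5 of 51 cells, Hoxa11 in 5 of 19 and 15 of 51, and Hoxa13 in 7 of 19 and 23 of 51 (Hoxa13, like Vim and Thy1, was picked after its values were seen). Of 7 measured patterning genes, 2 were at least 20 points higher and 0 that much lower, against 12.9% and 9.68% of all assays, and the median was -1.57 points.

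Lgr5-positive cells carried the progesterone receptor gene Pgr more often. It was detected in 17 of 19 (89.5%, interval 66.9 to 98.7%) and 27 of 51 (52.9%, interval 38.5 to 67.1%), a depth-stratified difference of 33.4 points with intervals that just overlap. Its level in detecting cells, 11.02 ± 1.90 and 11.92 ± 2.51 cycles after Gapdh, differed by less than the SD. The estrogen receptor gene Esr1 was found in 16 of 19 and 40 of 51 cells, a difference of 2.86 points. Both receptors were found together in 15 of 19 Lgr5-positive and 24 of 51 Lgr5-negative cells.

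Of 11 measured adult stem cell markers besides Lgr5, 4 were at least 20 points higher in Lgr5-positive cells: Aldh1a1, Prom1, Sox9 and Abcg2. The share over all assays was 12.9%. These are the genes with large differences described above, except Abcg2. Abcg2, a drug efflux transporter gene that was picked after its values were seen, was found in 8 of 19 (42.1%) and 9 of 51 (17.6%). The median of the list was 0 points, as for all assays. Bmi1, a Polycomb gene, was found in every cell of both classes, and Krt15 (a keratin of basal layers) in 13 of 19 and 33 of 51. The RNA-binding protein gene Msi1 lay just short, at 17 of 19 and 34 of 51 cells (19.1 points). Its level was 5.30 ± 1.44 (n = 17) and 6.64 ± 1.28 cycles after Gapdh (n = 34).

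Cell surface peptidases, keratins and other epithelial genes gave a mixed picture. Anpep (aminopeptidase N) was found with Lgr5 in 14 of 19 cells (73.7%) and without it in 22 of 51 (43.1%), a depth-stratified difference of 30.8 points. In contrast, Mme was found in 15 of 19 and 44 of 51 (-12.0 points). Enpep, the remaining measured peptidase gene beside Dpp4, was found in 12 of 19 and 38 of 51 (-19.8 points). It was picked after its values were seen. Cd200, an immunoglobulin-family glycoprotein gene, was detected in 18 of 19 and 36 of 51 cells (20.6 points, and 16.7 without the Gapdh filter). Trp63, a transcription factor gene of basal epithelial layers, was rare but was found mostly with Lgr5, in 5 of 19 cells (26.3%, interval 9.15 to 51.2%) against 1 of 51 (1.96%, interval 0.05 to 10.4%). Its depth-stratified difference was 23.1 points, and 16.8 with a detection limit of Ct 26. Krt18 and Krt19 were found in every cell, Krt8 in 18 of 19 and 49 of 51, and Cdh1 (E-cadherin) in 19 of 19 and 48 of 51. None of the 5 epithelial genes differed by 20 points.

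Cd24a, a surface glycoprotein gene of many epithelia found in every kept cell, had more template in Lgr5-positive cells. Its Ct minus Gapdh Ct ran from -1.24 through a median of 0.82 to 5.73 in them and from -0.40 through 2.87 to 7.13 in the others. The means of 1.18 ± 1.60 (n = 19) and 2.96 ± 1.58 (n = 51) differed by -1.78 cycles (3.43-fold). The highest value of the positive class belongs to cell 83, which also had the latest Krt18 and Epcam of the class. Krt18 stood at 2.34 ± 1.86 and 2.01 ± 2.88 cycles and Krt19 at 5.92 ± 1.38 and 6.22 ± 1.43, differences well within the SD.

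Over the 75 assays with at least 5 detecting cells in each class, the mean Ct minus Gapdh Ct was at least 1 cycle lower, meaning more template, in Lgr5-positive cells for 16 (21.3%). It was at least 1 cycle higher for 7 (9.33%), and the median difference was 0.05 cycles. Of the 10 assays with a share at least 20 points higher that could be compared, 9 had a mean Ct difference below 0 and 5 were past 1 cycle. The lowest Ct differences were those of Pax2, Wnt5a, Mki67 and Sox9. Mki67, which marks cells in cycle, had a Ct below 28 in 9 of 19 (47.4%) and 13 of 51 cells (25.5%), a depth-stratified difference of 17.7 points. Its level was 12.26 ± 3.01 (n = 9) and 14.70 ± 1.33 cycles after Gapdh (n = 13). Mki67 lay near the limit of 28, with a median Ct of 24.2 and 26.6 in the detecting cells. Lgr5-positive cells 83 and 29 and Lgr5-negative cells 4, 30, 61 and 92 had a Ct just past the limit. They count as not detected. Sox9 stood at 9.89 ± 1.82 (n = 14) and 11.75 ± 2.04 cycles (n = 17), a difference of -1.85 cycles that was -1.16 without the Gapdh filter. The Polycomb gene Ezh2 differed by -1.62 cycles, at 5.57 ± 1.86 (n = 15) and 7.19 ± 1.60 (n = 34), and Igf2r, found in all 19 Lgr5-positive cells and 41 of 51 others, stood at 4.71 ± 2.10 and 6.05 ± 2.31.

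**Figure D3:**
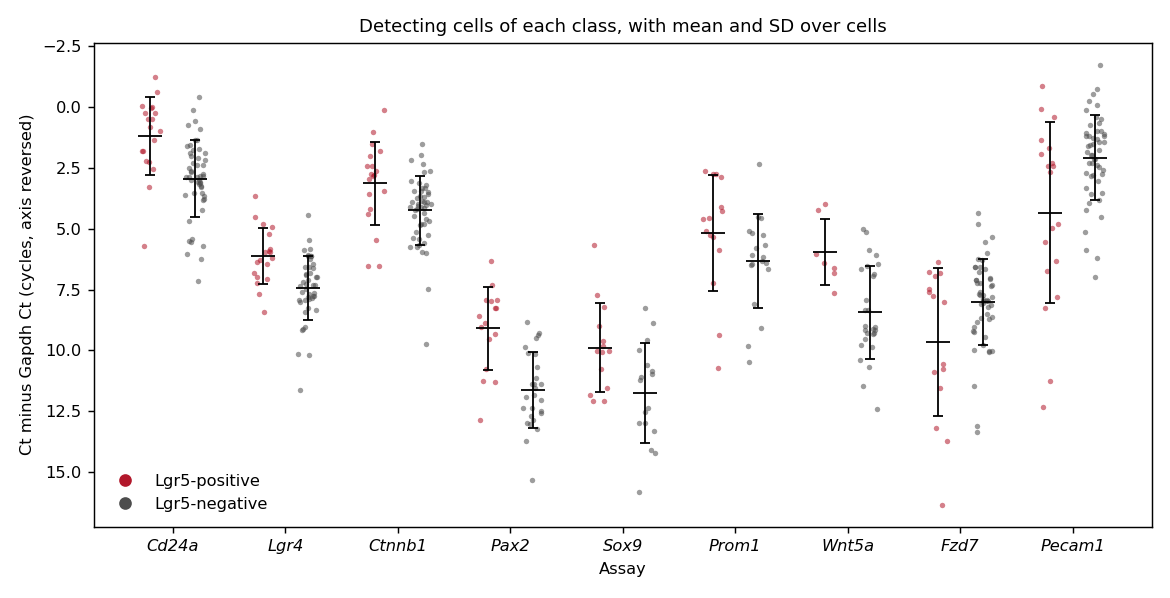
Ct minus Gapdh Ct (cycles, axis reversed so that more template is higher) of 9 assays in the detecting cells of each class; each point is a cell, and bars give the mean and SD over cells. By their means, Cd24a, Lgr4, Ctnnb1, Pax2, Sox9, Prom1 and Wnt5a sit higher in Lgr5-positive cells (red) and Fzd7 and Pecam1 lower. The points of the classes overlap in each. The Fzd7 medians were nearly equal, at 8.00 in Lgr5-positive and 7.90 in Lgr5-negative cells, and the Pecam1 medians were 2.69 and 1.84.

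The assays found less often beside Lgr5 belonged to several groups, and their number rests on the account of depth. Without strata 5 were at least 20 points lower (Fzd9, Itga5, Kit, Nanog and Fzd7), and Lgr6, Cd34, Tbx3 and Il17ra missed that size at -19.3, -18.7, -16.3 and -12.8 points. Itga5, an integrin subunit of the fibronectin receptor, was detected in 6 of 19 Lgr5-positive cells (31.6%) and 30 of 51 others (58.8%), a depth-stratified difference of -31.2 points. It was the only 1 of 8 integrin genes past 20 points, while Itgb3 was found in 0 of 19 (up to 15.8% allowed) and 9 of 51 cells. Kit, the stem cell factor receptor gene, was found in 13 of 19 (68.4%) and 49 of 51 (96.1%), a difference of -26.9 points that was -15.4 points with a detection limit of Ct 24. The other 4 growth factor receptors measured were within 20 points. The Lgr5-positive cells without Kit, 23, 95, 47, 72, 36 and 96, all had an Lgr5 Ct below 20, as did most of the class (median 19.3). Nanog, a pluripotency gene, was found in 14 of 19 and 48 of 51 cells (-25.5 points, and -17.0 with all 3 reference genes detected), and Sox2 and Pou5f1, of the same list, in 6 and 2 of 19 against 10 and 4 of 51. Lin28a was found in no kept cell, which allows up to 15.8% of Lgr5-positive cells.

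No endothelial, stromal, muscle, leukocyte or germ cell marker was 20 points or more higher in the Lgr5-positive cells. The basal epithelial marker Trp63, given above, was. The stromal markers went in both directions. Thy1 was found in 6 of 19 (31.6%) and 8 of 51 cells (15.7%), a depth-stratified difference of 14.1 points, and Mcam in 4 of 19 (21.1%) and 9 of 51 (17.6%), a difference of 2.48 points. The T-box gene Tbx3, which is placed here with stroma, was found in 1 of 19 and 11 of 51 cells (-21.7 points, and between -32.7 and -14.2 over the alternatives). Vim was found in 0 and 2 cells. Of the 7 stromal and muscle markers a cell held 2 to 4 in the Lgr5-positive and 2 to 6 in the Lgr5-negative class. The 7 include 3 that most cells of both classes detected. These were Nt5e (19 of 19 and 49 of 51), Mme (15 of 19 and 44 of 51) and sma (13 of 19 and 41 of 51, -14.3 points). Nt5e was picked after its values were seen. Counts and summed levels of this list therefore say little about stroma. Their summed level (28 minus Ct, 0 where not detected) ran from 11.9 to 43.3 and from 12.1 to 54.2. Of the endothelial markers, Eng was found in 0 of 19 (up to 15.8% allowed) and 4 of 51 cells (7.84%, -9.72 points). Cd34 was found in 8 of 19 and 31 of 51 (-29.0 points), and Pecam1 in every cell. The summed endothelial level was 6.0 to 21.3 and 11.2 to 29.8. Each of these sums includes Pecam1, which every kept cell detected, so they say little about endothelium. Pecam1 came later beside Lgr5 by its mean, at 4.34 ± 3.70 against 2.09 ± 1.74 cycles after Gapdh. Its medians lay closer, at 2.69 and 1.84, and its latest Ct values were 23.4 in cell 95 and 22.0 in cell 24. The smooth muscle assay sma had a similar difference of means, 5.72 ± 3.75 (n = 13) against 3.46 ± 2.88 (n = 41), with medians of 6.22 and 2.69. Leukocyte markers gave Il17ra in 8 of 19 and 28 of 51 (-21.1 points), Ptprc in 11 and 36, and Cd40 in 13 and 38, with summed levels from 0 to 31.0 and from 0 to 34.3. The part of these signals, and of the earlier Gapdh, in the other differences was not tested.

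Within the Lgr5-positive cells, those with early Lgr5 also had early Prom1, Sox9, Pax2, Fzd10, Msi1, Anpep, Mme and Emx2, the 8 assays with the highest Spearman rho of Ct (0.80 to 0.91). Mme is among them although its share was not higher beside Lgr5. The Ct of Lgr5 and Prom1 had a Spearman rho of 0.91 and a Pearson r of 0.86 over the 15 cells that detected both, with r = 0.81 once the 2 cells with the most extreme Lgr5 Ct about the median were dropped. For Pax2 the values were 0.84, 0.76 and 0.86 over 16 cells, and for Fzd10 0.83, 0.77 and 0.70 over 15 cells. Most assays moved with Lgr5 to some degree: over 53 assays detected in at least 12 of the cells the median rho was 0.43, and Lgr5 and Gapdh had a rho of 0.54. With the Gapdh Ct subtracted from both, the median fell to 0.08. Prom1 then had a rho of 0.71, Pax2 0.71, Mme 0.66, Sox9 0.65, Emx2 0.63, Fzd10 0.60, Msi1 0.53 and Anpep 0.42. Both axes now contain the same Gapdh value, which by itself moves them together. For Sox9, Emx2 and Fzd10 the Pearson r after leaving out the same kind of 2 cells was 0.38, 0.35 and 0.44. Krt18 did not follow Lgr5, with a rho of 0.31 before and -0.25 after subtraction. Krt19, Cdh1 and Krt8 had a rho of 0.31, 0.32 and 0.22 before it. Other epithelial genes did move with Lgr5. Epcam, which helped to define the cells, had a rho of 0.65 before subtraction, and Cd24a had 0.65 before and 0.33 after. No p is given, since the cells are not independent samples.

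**Figure D4:**
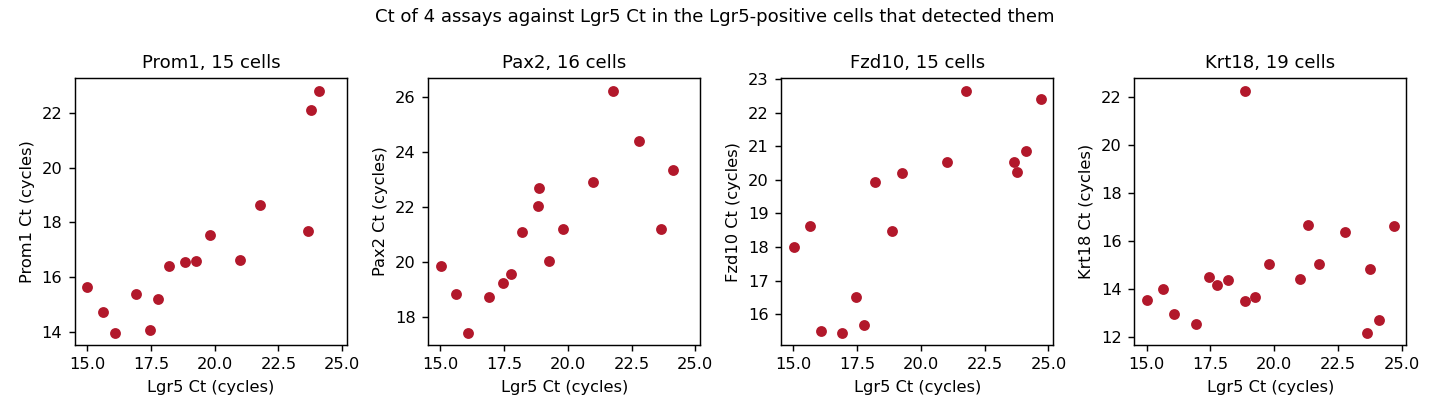
Ct of Prom1, Pax2, Fzd10 and Krt18 (cycles) against the Ct of Lgr5 in the Lgr5-positive cells that detected each (15, 16, 15 and 19 cells); each point is a cell. The first 3 rise with the Lgr5 Ct (rho 0.91, 0.84 and 0.83), whereas Krt18 is spread (rho 0.31).

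The Lgr5-positive cells were not uniform. The 5 cells 71, 23, 95, 47 and 72, with an Lgr5 Ct of 15.0, 15.6, 16.1, 17.5 and 17.8, detected all of Fzd10, Aldh1a1, Prom1, Sox9, Dpp4, Emx2 and Pax2. Cell 24, whose Lgr5 Ct of 16.9 lies among theirs, lacked Sox9 and Dpp4. Cell 83 stood at the other end, with an Lgr5 Ct of 18.8, an Epcam Ct of 23.8 and none of Fzd10, Prom1, Sox9, Dpp4 and Emx2, although it detected Aldh1a1 at 22.1 and Pax2 at 22.0. Cell 29 (Lgr5 Ct 21.3) had Sox9 but none of Fzd10, Aldh1a1, Prom1, Dpp4, Emx2, Pax2 and Wnt7a. Cell 77 (Lgr5 Ct 22.8) had the fewest detected assays of the class, 41, and lacked Fzd10, Prom1, Emx2 and Wnt7a while holding Sox9, Dpp4 and Pax2. Lgr5 Ct and the number of detected assays were nearly unrelated over the 19 cells (rho = -0.09).

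Fzd10 also occurred without Lgr5, in 11 cells. Of these, 5 detected Prom1, 4 Dpp4, 4 Sox9 and 1 Aldh1a1, and among the 40 Lgr5-negative cells without Fzd10 the counts were 14, 10, 13 and 3. Anpep was found in 9 of the 11 and 13 of the 40. In Lgr5-positive cells, Fzd10 was found together with Prom1 in 14 cells and with Emx2 in 14, against 5 and 5 of the 51 Lgr5-negative cells. These genes each differ in share between the classes, so the joint counts describe the cells and add no support.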

How the data were processed

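The members, gene lists and comparisons were chosen with earlier results of these data known. The authors deposited raw Ct values (entered under the unit score here) and a table of fold changes, a ratio to a housekeeping gene and a control cell per the file headers. Folds recomputed from Ct minus Gapdh Ct relative to cell 1 differed from the deposited ones by at most 6.55e-06 (log2). Cells were lysed and preamplified in 1 step and run on a Biomark chip with EvaGreen, per the labels' protocols. Baseline and primers are not stated in the labels.

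Columns were matched to cells by number. Symbols came from RefSeq (GRCm38.p6) for 75 assays, from CD or protein names for 7 each, and 3 short names shared by several genes were read as Esr1, Pgr and Trp63. 4 assays kept the name in the file. Detected means a Ct below 28. Depth is the number of other detected assays without the assay itself, cut into 3 equal-rank strata with ties in cell order. Levels are Ct minus Gapdh Ct over detecting cells, where each class had at least 5. Named genes were the given markers, the WNT and gland lists, the 8 largest share differences each way, the 4 largest Ct differences each way, extremes of each other list, and assays in no or every kept cell. Doublets were not called. The steps were tested on simulated data. Versions were scipy 1.17.1, pandas 2.3.3, numpy 2.4.6 and matplotlib 3.10.9 under Python 3.11.15.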

Additional observations from a re-analysis of the deposited data

How the results depend on the processing

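The 19 alternatives moved 5 of 104 values of the main results by more than 1.5 times. Without an account of depth the assays at least 20 points lower numbered 5 in place of 9. The cause was not tested. With Gapdh, actin and Hprt all required in a cell (16 Lgr5-positive and 39 Lgr5-negative) they numbered 14, and the assays with a Ct difference at least 1 cycle higher numbered 12 in place of 7. On Ct itself, with no reference, the assays at least 1 cycle lower numbered 30 in place of 16 and those higher 4 in place of 7; that setting leaves the earlier Gapdh of Lgr5-positive cells in the differences. No value past its size changed sign. The Fzd10 difference ranged from 50.6 to 67.5 points and the Aldh1a1 difference from 33.5 to 44.6. Of the 20 assays past 20 points that were rerun, 9 stayed past it under every alternative (Fzd10, Dpp4, Aldh1a1, Prom1, Pgr, Emx2, Anpep, Fzd9 and Itga5). The other 11 fell under it in at least 1: Sox9, Pax2, Trp63, Cd200, Kit, Nanog, Fzd7, Lgr6, Cd34, Tbx3 and Il17ra. Of 18 assays past 1 cycle that were rerun, 6 fell under it in at least 1 alternative, among them Prom1 (-0.98 without the Gapdh filter), Igf2r (-0.96 without the Epcam filter) and Fzd7 (0.47 with a detection limit of Ct 24). The sma difference ranged from 1.16 to 3.47 cycles. Eng moved from -9.72 to -19.4 points without the Epcam filter. The alternatives were not run for Abcg2, Thy1, Vim, Nt5e, Hoxa13, Tert, Insr, Hopx, Lrig1 and Enpep. No paired analysis was possible because the labels hold a single group. With 19 cells, shares near 50% have intervals of over 20 points on either side.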

Other observations

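Cell 87, the only Lgr5-positive cell outside the filter, had an Lgr5 Ct of 21.7, an Epcam Ct of 24.4 and 17 detected assays of 93. It detected 0 of Fzd10, Aldh1a1, Prom1, Dpp4 and Sox9, and neither Emx2 nor Pax2 had a Ct.

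Tert, the telomerase reverse transcriptase gene, was found in 6 of 19 Lgr5-positive cells (31.6%) and 6 of 51 Lgr5-negative cells (11.8%), and Insr, the insulin receptor gene, in 16 of 19 and 32 of 51. Their depth-stratified differences were 15.2 and 15.1 points. Hopx, a homeodomain gene of the adult stem cell list above, was found less often beside Lgr5, in 7 of 19 and 26 of 51 cells (-15.5 points). These 3 were picked after their values were seen.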
